A study of Saccharomyces cerevisiae with 12 samples.

Results

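The comparison described here is the interaction of RRD1 loss with rapamycin: for each gene, the response of an RRD1 knockout strain to rapamycin minus the response of its wild-type reference strain. It used all 12 libraries of the RNA-seq experiment and the 6497 of 7126 features whose mean level over these libraries was at least 1 FPKM (fragments per kilobase of transcript scaled to the mapped fragments of the library, a level corrected for gene length). The wild type was the Saccharomyces cerevisiae laboratory strain BY4730 and the knockout was the commercially distributed strain YSC6273-201925697, so that the loss of RRD1 was represented by 1 strain. Cells of both strains were in log phase in the rich medium YPD, and total RNA was taken from untreated cultures and from cultures kept for 50 min with 100 nM rapamycin. Each of the 4 groups (wild type or knockout, without or with rapamycin) held 3 libraries made on different days, but the labels do not say which libraries share a day. Untreated libraries carry the numbers 1, 3 and 5 in each strain, and treated libraries carry the numbers 2, 4 and 6. A response is the difference of mean log2(FPKM + 1) between treated and untreated libraries, and the difference of responses is positive when the knockout value lies above the wild-type value. A positive difference therefore means a weaker fall or a stronger rise in the knockout.

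Rapamycin binds the prolyl isomerase Fpr1, and the complex inhibits TORC1, the kinase complex that ties the growth of the yeast cell to its nutrients. When TORC1 is active, the genes for ribosomes and their assembly are highly expressed and the genes for the use of poor nitrogen sources are kept low, and inhibition of TORC1 reverses both. Rrd1 is a yeast homologue of the mammalian phosphatase activator PTPA and acts on phosphatases of the PP2A family, one of which, Sit4, lies downstream of TORC1 and promotes the nuclear entry of the GATA factor Gln3. The comparison asks which parts of the transcriptional response differ when this activator is missing.

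RRD1 itself checked the strain labels: its level was 47.7, 47.5 and 72.3 FPKM in the untreated and 81.9, 67.2 and 85.3 FPKM in the treated wild-type libraries, against 0, 0.103 and 0.203 FPKM and 0, 0 and 0 FPKM in the knockout libraries. The 6 knockout values lay far below all wild-type values. LEU2, MET17 and URA3 were listed at 0 in all 12 libraries of both strains. Both strains carried the RNA of haploid a cells, with high FPKM values for the a-factor genes MFA1 and MFA2. These genes are short, and a length-corrected level can overstate the abundance of short transcripts. STE3, the a-factor receptor of alpha cells, was between 2.71 and 11.2 FPKM. Of the alpha-factor genes, MF(ALPHA)1 was at most at 1.87 FPKM, but MF(ALPHA)2 was between 28.9 and 59.8 FPKM over the 12 libraries. MFA1, however, set knockout libraries 1 and 2 apart, with 198870 and 320728 FPKM against 67170 to 131465 FPKM in the other 4 knockout libraries. The wild-type range was 202270 to 629233 FPKM. STE2, the alpha-factor receptor of a cells, ran in the same way, with 882, 531 and 537 FPKM in the untreated and 1363, 572 and 624 FPKM in the treated knockout libraries. The number of calls and some list medians are therefore also given below without knockout libraries 1 and 2. The FPKM values of a library summed to between 1848118 and 2584116, and steps in the low values implied 8440000 to 11760000 mapped reads per library.

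Both strains responded to the drug across about the same share of the genome, and few genes showed a difference of responses that passed the test. With limma and Benjamini-Hochberg adjustment at 0.01, 3390 of 6497 features (52.2%) responded in the wild type, 2334 (35.9%) upward and 1056 (16.3%) downward, and 3032 (46.7%) responded in the knockout, 2362 (36.4%) upward and 670 (10.3%) downward. The difference of responses passed the same threshold for 17 features (0.262%), 5 above 0 (0.077%) and 12 below 0 (0.185%). At an adjusted p under 0.05 there were 153 (2.35%), 104 above 0 (1.6%) and 49 below 0 (0.754%), and at an unadjusted p under 0.05 there were 1092 (16.8%). The levels of the strains differed for 38 features (0.585%) without rapamycin, 2 higher (0.0308%) and 36 lower (0.554%) in the knockout, and for 914 (14.1%) with it, 538 higher (8.28%) and 376 lower (5.79%). In the pooled RNA of a culture, fewer responding cells and a weaker response per cell cannot be told apart. For all 17 the knockout responded in the same direction as the wild type but less: 12 genes rose less and 5 fell less. Over all features the median response was 0.29 in the wild type and 0.34 in the knockout, and the median difference was 0.09.

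Consecutive library numbers of a strain behaved as pairs, and with these pairs as a block the difference passed for 83 features (1.28%), 59 above 0 (0.908%) and 24 below 0 (0.369%). These 83 included 12 of the 17 features called without the block. Of the 83, 57 were genes that fell less in the knockout, 23 rose less, 1 rose more and 2 moved in opposite directions. The number of calls also rested on single libraries: it was 1 when any of wild-type libraries 1, 2, 3 and 6 or knockout libraries 3, 4 and 5 was left out, 2 without knockout library 1, 6 without wild-type library 5, 9 without knockout library 2, 13 without wild-type library 4 and 19 without knockout library 6. Without knockout libraries 1 and 2 together it was 4. The gene called in every 1 of these fits was VBA1, described below. Of 27 alternative settings, VBA1 kept its call in 27, DAL5 and URA1 in 18, MLS1 in 17, YHR022C in 16 and RPA135 in 15. TSA2 and YEF3 kept it in 14, RPA190 in 13, DAL2 in 12 and KRE33 in 11. For GDH3, YIL165C and YPR078C the call held in 10, for YAT2 in 9 and for DCG1 and DUR3 in 8. When each library was scaled by its median ratio to the geometric mean of the libraries, the median response of all features shifted by -0.28 in the wild type and by -0.34 in the knockout, and the split of called responses moved from 68.8% to 49.2% upward in the wild type and from 77.9% to 49.4% in the knockout. The median difference of responses was 0.02 with this scaling, and the number of called differences was 24.

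**Figure D1:**
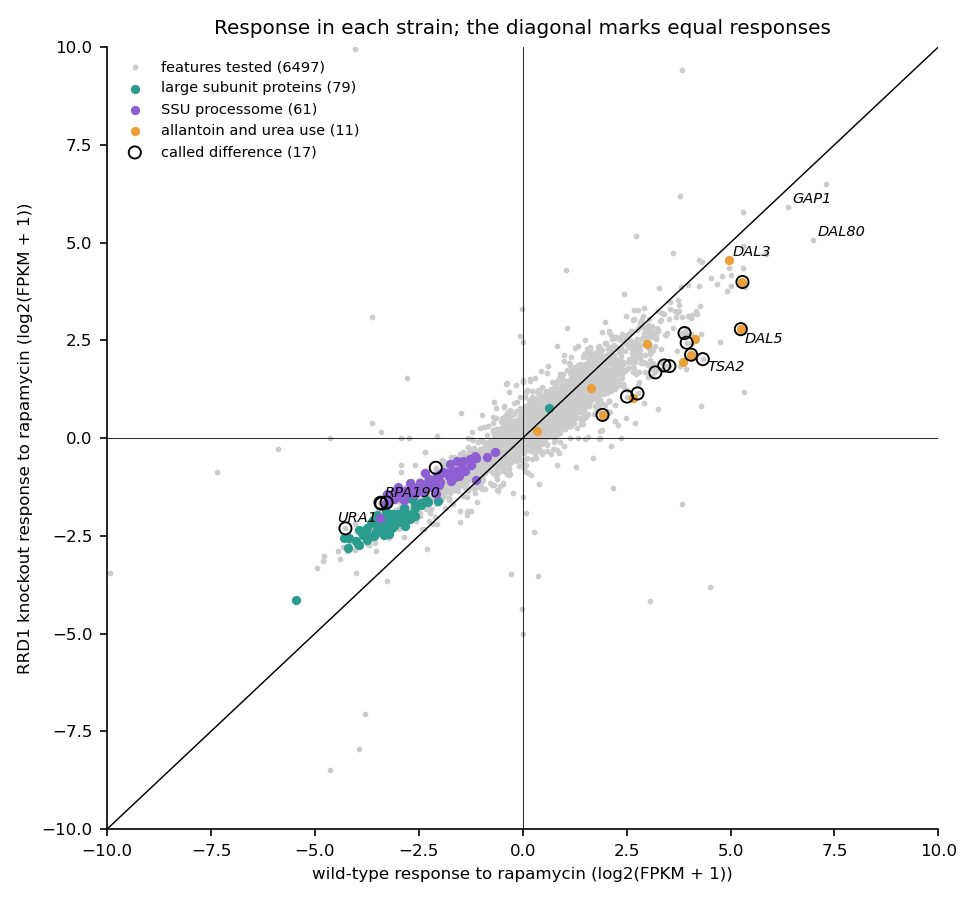
Response of each of the 6497 features to rapamycin in the wild type (x axis) and in the RRD1 knockout (y axis), both as a difference of log2(FPKM + 1); a point on the diagonal responded equally in both strains. The ribosome assembly factors and ribosomal proteins lie above the diagonal at the lower left, most allantoin and urea genes lie below it at the upper right, and open circles mark the 17 called differences.

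The nitrogen genes with the largest differences are shown first, with the promoters of genes whose differences were of different size. Gln3 and its partner Gat1 bind GATA sites, and GATAAG on either strand is set in capitals. The stretches run from 250 to 81 bases before the start codon and are from RefSeq R64. DAL5 and DAL2 were called for a weaker rise in the knockout, DAL80 was called with the pairs as a block, and GAP1 and DAL3 were not called:
DAL5 (chrX:719416-719585, plus strand): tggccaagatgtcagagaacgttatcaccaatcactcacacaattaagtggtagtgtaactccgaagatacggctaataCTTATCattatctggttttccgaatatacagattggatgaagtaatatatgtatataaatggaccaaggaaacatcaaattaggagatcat
DAL80 (chrXI:506648-506817, plus strand): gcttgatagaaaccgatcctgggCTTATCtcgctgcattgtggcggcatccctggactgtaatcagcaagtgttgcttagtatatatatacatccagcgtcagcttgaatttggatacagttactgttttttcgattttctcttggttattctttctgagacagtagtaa
DAL2 (chrIX:410557-410726, plus strand): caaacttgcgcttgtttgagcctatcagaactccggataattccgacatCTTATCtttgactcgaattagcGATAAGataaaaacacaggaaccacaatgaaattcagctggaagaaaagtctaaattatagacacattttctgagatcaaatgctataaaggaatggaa
GAP1 (chrXI:514813-514982, plus strand): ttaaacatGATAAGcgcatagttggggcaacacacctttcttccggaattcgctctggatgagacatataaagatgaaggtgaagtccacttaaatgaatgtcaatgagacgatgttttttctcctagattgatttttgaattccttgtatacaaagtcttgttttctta
DAL3 (chrIX:415698-415867, minus strand): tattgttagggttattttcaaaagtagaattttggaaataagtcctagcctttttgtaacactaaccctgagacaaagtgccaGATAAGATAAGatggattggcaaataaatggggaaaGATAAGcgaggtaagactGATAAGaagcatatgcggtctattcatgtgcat
In the full window from 250 bases before to 50 after the start, DAL5, DAL80 and GAP1 had 1 match each, DAL2 had 2 and DAL3 had 5, of which 1 pair shares bases. GATAAG occurred in 7 of 11 promoters of the allantoin and urea list (63.6%) and in 14.8% of the 5854 promoters of tested features. The motif was thus present in genes of both kinds.

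Among the transporters, DAL5, the permease for allantoate and ureidosuccinate, had the largest called difference below 0. Its level was 19.9, 20.1 and 21.9 FPKM in the untreated wild type and 862, 748 and 854 FPKM with rapamycin. The knockout libraries held 17.2, 13.9 and 16.3 FPKM without and 81.6, 119 and 153 FPKM with the drug. Untreated levels were slightly lower in the knockout without overlap, and the treated knockout libraries lay between the untreated and the treated wild type without overlap. The response was 5.25 in the wild type and 2.78 in the knockout, a difference of -2.46 ± 0.26 (SE, 3 libraries per group; limma, adjusted p = 0.0042).

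VBA1, a vacuolar permease for basic amino acids, had the smallest p of all features. Its levels were 54.3, 59.4 and 58.8 FPKM and 332, 323 and 339 FPKM in the wild type and 53.4, 58.4 and 58.7 FPKM and 110.1, 118 and 131 FPKM in the knockout, without and with rapamycin. The strains overlapped without the drug and were far apart with it, with a spread inside each group that was small. The difference was -1.45 ± 0.13 (limma, adjusted p = 0.00127). DUR3, the transporter of urea and polyamines, reached 374, 378 and 415 FPKM in the treated wild type and 117, 120 and 145 FPKM in the treated knockout from 8.39, 9.82 and 8.75 FPKM and 8.32, 7.37 and 5.67 FPKM. Its response was large in both strains, 5.29 and 3.99, and the difference of -1.30 (limma, adjusted p = 0.0098) missed the threshold with the pairs as a block (0.0155, with 0.0026 to 0.046 over 27 alternatives). The allantoin permease DAL4 had a difference of -1.62 (limma, adjusted p = 0.0152), and the GABA and proline permeases UGA4 and PUT4 had differences of -1.27 and -1.42 (adjusted p = 0.0152 and 0.0299). These 3 were not called.

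The enzymes of allantoin breakdown lie with DAL4 in a cluster on chromosome IX. DAL2, which encodes allantoicase, was at 20.6, 19.6 and 23.7 FPKM in the untreated and 428, 311 and 373 FPKM in the treated wild type, and at 18.9, 13.6 and 13.2 FPKM and 59.1, 66.5 and 84.3 FPKM in the knockout. The knockout was slightly lower without the drug and much lower with it, with no overlap in either state. The difference was -1.92 ± 0.24 (limma, adjusted p = 0.00728, and 0.0109 with the pairs as a block, with 0.00063 to 0.035 over 27 alternatives). DCG1, a gene of unknown biochemical role within the cluster, had a difference of -1.33 (limma, adjusted p = 0.0098, and 0.0148 with the block, with 0.0022 to 0.046 over 27 alternatives). DAL1, the allantoinase that opens the pathway, and DAL7, a malate synthase, had differences of -1.92 and -1.62 that were not called (limma, adjusted p = 0.0209 and 0.0259).

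The exception in the cluster was its last gene, DAL3, the ureidoglycolate lyase. Its levels were 14.8, 14 and 18.4 FPKM and 608, 456 and 493 FPKM in the wild type and 12.3, 11 and 7.63 FPKM and 243, 250.3 and 286 FPKM in the knockout. The knockout lay below the wild type in both states, so that the responses were close, 4.96 and 4.55. The difference was -0.41 with a 95% interval of -0.94 to 0.13. Next to the cluster, the phosphatase gene YVH1 had a difference of 1.06, and MGA2, beside DAL3, had 0.03. Neither was called. DAL1, DAL4, YVH1 and MGA2 were added to the named genes for their place on the chromosome after values were seen.

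**Figure D2:**
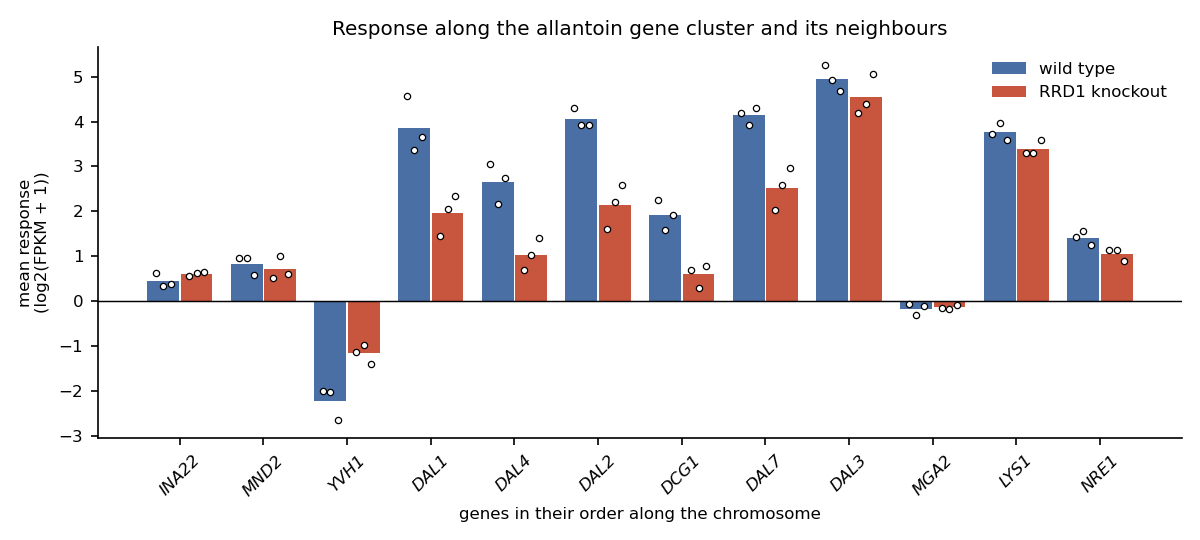
Mean response to rapamycin (log2(FPKM + 1), y axis) of the genes in and beside the allantoin cluster, in their order along chromosome IX, in wild type (blue) and RRD1 knockout (red); white points are the 3 pairs of libraries of each strain. From DAL1 to DAL7 all knockout points lie below the wild-type points, whereas the points of the strains overlap for DAL3 and MGA2.

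Of the regulators, DAL80, the GATA repressor that is itself induced when nitrogen is poor, was nearly silent without the drug, with 0.581, 0.446 and 1.44 FPKM in the wild type and 0.965, 0.671 and 0.495 FPKM in the knockout. With rapamycin it reached 254, 182 and 241 FPKM in the wild type and 57, 52.9 and 56.8 FPKM in the knockout. The treated groups did not overlap. The difference of -1.93 ± 0.29 had an adjusted p of 0.0116 (limma), and of 0.0081 with the pairs as a block, which passes the threshold (0.0058 to 0.065 over 27 alternatives). The repressor gene GZF3 had a difference of -0.29, and NPR2, a subunit of the complex that restrains TORC1, had -0.51, and neither was called.

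As a group, the 11 allantoin and urea genes had a median response of 3.87 in the wild type and 2.13 in the knockout, and a median difference of -1.33 against 0.09 over all features. Their differences ran from -2.46 to -0.17, all 11 below 0. The test called 4 of them below 0 (36.4%, against 0.185% of all features) and 1 with the block. The median was -1.37 without knockout libraries 1 and 2. The medians of other nitrogen lists were nearer 0. The 13 ammonium, general and basic amino acid permeases had a median difference of -0.45 with 0 calls, against 0.262% of all features. At an adjusted p under 0.05, 3 were below 0 and 0 above, against 0.754% and 1.6% of all features. In 7 all 3 knockout pairs lay below all 3 wild-type pairs and in 2 above, against 10.7% and 24.2% of all features. The 7 proline and GABA genes had a median difference of -0.18, also with 0 calls. In lists this small, 0 calls do not set the genes apart from the 0.262%. The 9 GATA factors and nitrogen regulators had -0.29, with DAL80 called under the block. Single libraries moved these medians: that of the proline and GABA genes was -0.05, -0.30 and -0.12 without wild-type libraries 1, 3 and 4, and that of the regulators was -0.15 without wild-type library 1.

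GDH3, the glutamate dehydrogenase used when glucose is low, was called among the 7 glutamate and glutamine synthesis genes. It was at 26.6, 29.3 and 35.3 FPKM and 305, 261 and 285 FPKM in the wild type and at 26.5, 19.2 and 17.4 FPKM and 74.7, 65.6 and 65.5 FPKM in the knockout, a difference of -1.51 ± 0.22 (limma, adjusted p = 0.0098). The groups did not overlap in either state, with the wider gap under rapamycin. The mitochondrial isocitrate dehydrogenase gene IDP1 and the glutamate synthase gene GLT1 had differences of -0.67 and -0.69, and neither was called. The list's median difference was -0.61, and -0.44 without knockout libraries 1 and 2.

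Several other called genes belong to carbon use and to the removal of peroxides. TSA2, a stress-induced cytosolic peroxiredoxin, was at 28.5, 18.3 and 23.3 FPKM in the untreated and 611, 389.7 and 473 FPKM in the treated wild type, and at 29.3, 22.5 and 27.9 FPKM and 146, 88.6 and 103 FPKM in the knockout. The untreated groups overlapped and the treated ones did not. Its difference of -2.31 ± 0.31 (limma, adjusted p = 0.00852) was the only call among the 22 peroxiredoxin, catalase and superoxide dismutase genes, whose median difference was 0.08. MLS1, the malate synthase of the glyoxylate cycle, was at 3.74, 4.46 and 4.73 FPKM and 70.3, 52.8 and 58.5 FPKM in the wild type and at 4.29, 4.13 and 3.46 FPKM and 18, 15.8 and 16.3 FPKM in the knockout. Treated wild-type levels were all more than the highest treated knockout level. The difference was -1.69 ± 0.20 (limma, adjusted p = 0.00425).

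YAT2, a carnitine acetyltransferase, had a difference of -1.51 ± 0.22 (limma, adjusted p = 0.0098), from 201, 248 and 242 FPKM in the treated wild type against 88.3, 62.4 and 82 FPKM in the treated knockout. CRC1, the mitochondrial carnitine carrier, passed with the pairs as a block (difference -1.40; limma, adjusted p = 0.00764 with and 0.0444 without the block, with 0.0045 to 0.13 over 27 alternatives). The same held for NQM1, a transaldolase (-1.20; 0.00338 and 0.04, with 0.0031 to 0.12), and NDE2, an external NADH dehydrogenase of mitochondria (-1.10; 0.00954 and 0.0299, with 0.0072 to 0.092). The medians of the lists were nearer 0: -0.18 over 16 glyoxylate cycle and gluconeogenesis genes and -0.06 over 46 genes of peroxisomes and beta-oxidation. The first of these was -0.08, -0.12 and -0.06 without wild-type libraries 1 and 4 and knockout library 1. It was -0.09 without knockout libraries 1 and 2 together. The second ran from -0.14 to -0.02 over the libraries left out. PCK1, the enzyme that commits to gluconeogenesis, had a response of 1.69 in the wild type and a difference with a 95% interval of -0.63 to 0.25.

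The remaining called features below 0 have no well-established function. YHR022C had a difference of -1.62 (limma, adjusted p = 0.0042), with 192, 142 and 148 FPKM in the treated wild type and 50.1, 52.7 and 44.8 FPKM in the treated knockout. YIL165C had a difference of -1.55 (limma, adjusted p = 0.00852, and 0.0149 with the block, with 0.00065 to 0.039 over 27 alternatives). YPR078C was different in kind. Its levels were 3.07, 3.72 and 4.54 FPKM in the untreated wild type and 9.64, 11.3 and 9.45 FPKM in the untreated knockout, and 68.5, 73.1 and 66.6 FPKM and 65.2, 72.6 and 73.4 FPKM with rapamycin. The strains overlapped with the drug and were apart without it, so that its difference of -1.21 (limma, adjusted p = 0.0098, and 0.0103 with the block, with 0.0026 to 0.046 over 27 alternatives) came from the untreated level, which was higher in the knockout by 1.23 (adjusted p = 0.00128).

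**Figure D3:**
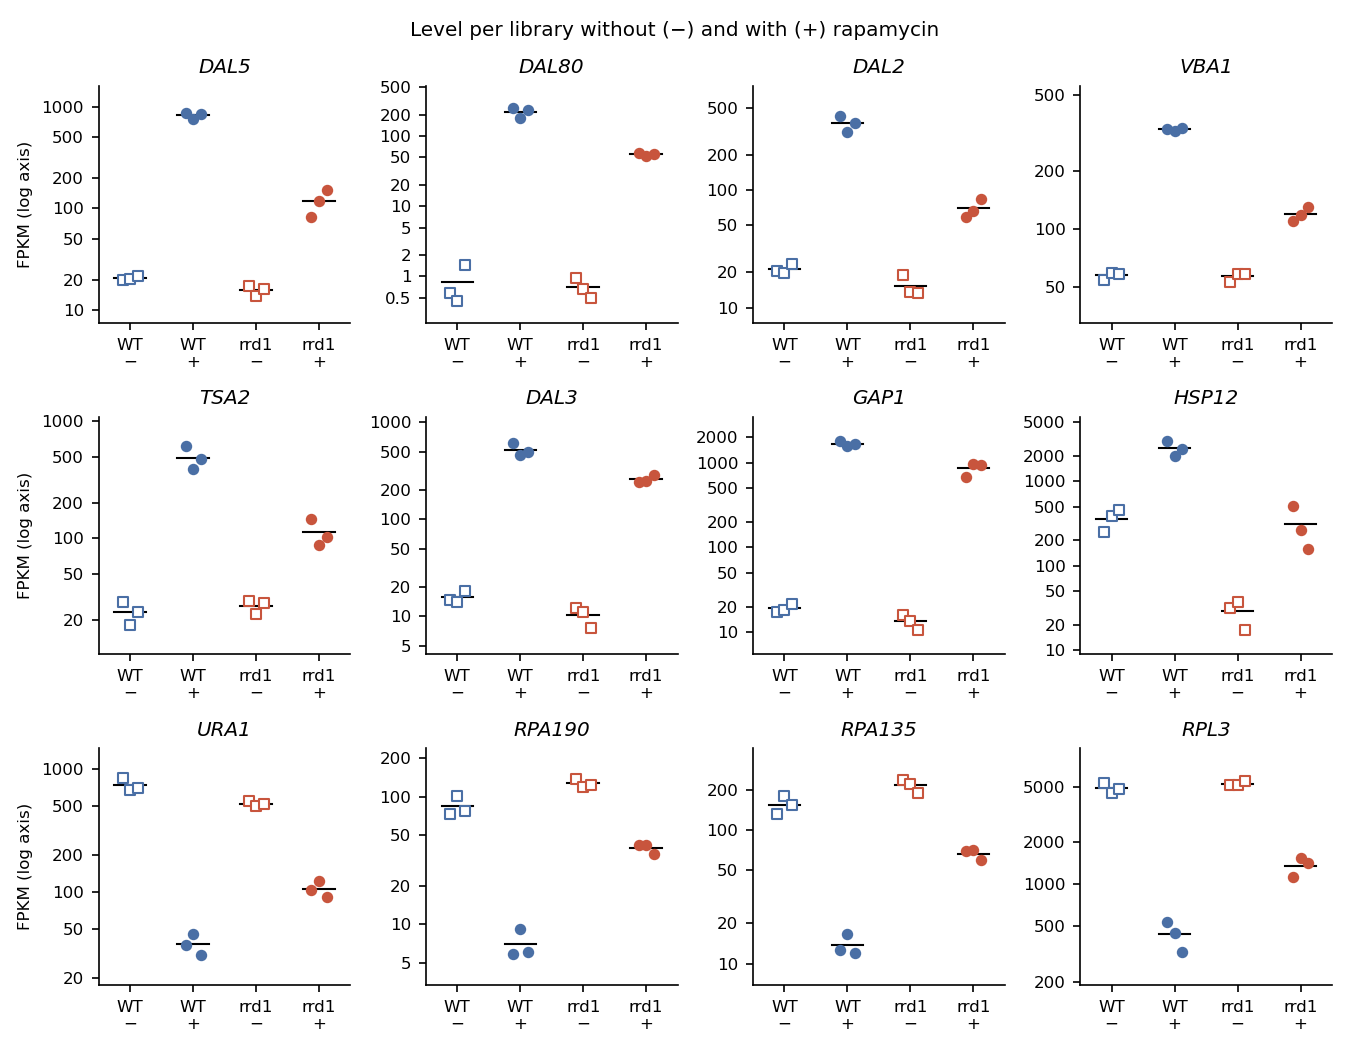
Level of 12 genes (FPKM on a log axis) in each library of the wild type (WT, blue) and the RRD1 knockout (rrd1, red) without (open squares) and with (filled circles) rapamycin; lines mark means of 3 libraries. For DAL80, VBA1 and TSA2 the strains overlap without the drug and part with it. DAL5 and DAL2 start slightly lower in the knockout and part further with the drug. DAL3, GAP1 and HSP12 are lower in the knockout in both states, and the genes of the bottom row fall less far in the knockout.

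The lists of ribosomal proteins, ribosome assembly factors, RNA polymerase I and III subunits and translation factors had median responses below 0 in both strains. Of their 338 members 335 had a difference above 0, against 4053 of 6497 features tested. Of the 5 calls above 0, 3 were genes of ribosomal RNA synthesis and assembly. RPA190 and RPA135, which encode the large catalytic subunits of RNA polymerase I, and KRE33, the acetyltransferase of 18S ribosomal RNA, are shown with the PAC-type core GATGAG, a motif common in ribosome assembly genes, in capitals on either strand. The stretches run over the same window before the start codon (RefSeq R64):
RPA190 (chrXV:960737-960906, plus strand): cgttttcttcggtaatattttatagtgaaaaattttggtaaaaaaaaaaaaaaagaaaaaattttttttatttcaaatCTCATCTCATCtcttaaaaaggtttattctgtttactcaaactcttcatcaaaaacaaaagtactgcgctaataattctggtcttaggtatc
RPA135 (chrXVI:581277-581446, minus strand): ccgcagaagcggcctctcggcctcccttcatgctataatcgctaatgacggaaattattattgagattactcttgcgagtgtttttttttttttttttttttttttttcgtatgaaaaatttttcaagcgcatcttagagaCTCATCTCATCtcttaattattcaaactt
KRE33 (chrXIV:375071-375240, plus strand): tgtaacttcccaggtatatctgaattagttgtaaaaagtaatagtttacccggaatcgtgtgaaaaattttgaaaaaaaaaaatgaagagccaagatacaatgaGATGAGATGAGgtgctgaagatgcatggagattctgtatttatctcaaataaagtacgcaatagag
In the full windows RPA190 and KRE33 had 2 matches and RPA135 had 3. In RPA190, RPA135 and KRE33 a pair of matches shares a base.

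RPA190 was at 73.7, 102 and 77.8 FPKM in the untreated and 5.86, 9.21 and 6.03 FPKM in the treated wild type, and at 138, 120.5 and 125 FPKM and 41.7, 42.2 and 35.6 FPKM in the knockout. The treated knockout libraries were all above the treated wild-type libraries by a wide gap, and the untreated knockout libraries were also slightly above. The difference was 1.77 ± 0.24 (limma, adjusted p = 0.00852). RPA135 was at 131, 181 and 153 FPKM and 12.7, 16.6 and 12 FPKM in the wild type and at 236, 221 and 190.1 FPKM and 69.8, 70.6 and 59.4 FPKM in the knockout. Its groups were placed in the same order, and its difference was 1.72 ± 0.21 (limma, adjusted p = 0.00668). The other 13 RNA polymerase I genes were mixed. RPA12, a small subunit, had 0.93 and the initiation factor gene RRN3 had 0.42 (95% interval -0.54 to 1.38). The median of the 15 was 0.42, with 2 called above 0 (13.3%, against 0.077% of all features). This median was 0.22 without wild-type library 6, 0.20 without knockout library 2, 0.26 without knockout library 5, 0.64 without knockout library 1 and 0.69 without knockout library 6. The 12 RNA polymerase III subunits had a median difference of 0.63, all 12 above 0. RPC31 passed with the block (1.16; limma, adjusted p = 0.0072 with and 0.013 without it, with 0.0034 to 0.056 over 27 alternatives).

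KRE33 was at 74.9, 85 and 65.2 FPKM and 7.12, 8.13 and 5.42 FPKM in the wild type and at 113, 108 and 98 FPKM and 39, 35.1 and 26.6 FPKM in the knockout. The knockout lay above the wild type in both states without overlap, with the wider gap under rapamycin. The difference was 1.63 ± 0.24 (limma, adjusted p = 0.0098). It was the 1 call (1.64%, against 0.077% of all features) among 61 genes of the SSU processome and 40S assembly, all of which had a difference above 0, from 0.05 to 1.83. Their median response was -2.18 in the wild type and -1.13 in the knockout, which is 51.7% of the wild-type value on the log2 scale. These medians were -2.46 and -1.48 with the median-ratio scaling, so that the percentage depends on the scaling. With the pairs as a block 17 were called above 0, against 0.908% of all features, among them PWP2, a core protein of the processome (1.83; limma, adjusted p = 0.00303 with and 0.0197 without the block, with 0.0018 to 0.069 over 27 alternatives), and RRP5, which acts in both subunits' maturation (1.45; 0.00338 and 0.0165, with 0.0034 to 0.065).

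The 72 factors of 60S assembly and export behaved in the same way. Their median response was -2.13 in the wild type and -1.07 in the knockout, and all 72 differences were above 0. The limma test called 0 of them without the block and 12 with it, against 0.908% of all features above 0 with the block; 55 had an unadjusted p under 0.05 without it, against 16.8% of all features. MAK21, a factor of early pre-60S particles, had a difference of 1.63, and the helicase gene DBP3 had 1.53 (limma with the block, adjusted p = 0.00568 and 0.0081, with 0.0036 to 0.061 and 0.0043 to 0.076 over 27 alternatives). In these lists the knockout started from a slightly higher level: the median knockout minus wild-type level without rapamycin was 0.34 for the SSU factors and 0.37 for the 60S factors, and with rapamycin it was 1.41 and 1.41. Without knockout libraries 1 and 2 the median differences were 0.97 and 0.93.

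Ribosomal protein genes fell further than the assembly factors in both strains and kept more of the fall. The 79 genes of the large subunit had a median response of -3.13 in the wild type and -2.13 in the knockout (68%). The 57 genes of the small subunit had -3.28 and -2.25 (68.7%). With the median-ratio scaling the medians were -3.42 and -2.48 for the large and -3.57 and -2.61 for the small subunit. These percentages therefore depend on the scaling too. The differences of all 136 were above 0, with medians of 1.04 and 1.07 that became 1.19 and 1.24 without knockout libraries 1 and 2. The untreated levels differed little, with medians of 0.05 and 0.06 for knockout minus wild type. The limma test called 0 of the 136 without the block, where 0.262% of all features were called, and 3 and 5 above 0 with it, where 0.908% of all features were. Without it 71 and 49 had an unadjusted p under 0.05, against 16.8% of all features. In 75 of 79 and 55 of 57 genes all 3 knockout pairs lay above all 3 wild-type pairs, against 24.2% of all features. The pair of knockout libraries 1 and 2 lay nearest the wild type, with a median of -2.45 over the large subunit genes against -2.03 and -1.92 in the other knockout pairs and -3.06, -3.10 and -3.27 in the wild type.

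RPL3 encodes a protein close to the peptidyl transferase center. Its levels were 5359, 4510.2 and 4863 FPKM and 539, 450.1 and 327 FPKM in the wild type and 5162, 5129 and 5506 FPKM and 1124, 1538 and 1419 FPKM in the knockout. Untreated libraries overlapped and treated ones did not. The difference was 1.54 ± 0.26 (limma, adjusted p = 0.0197, not called). RPL5, the carrier of 5S ribosomal RNA, had 1.57, and RPL13A and RPS26B, called with the block, had 1.06 and 1.63 (limma, adjusted p = 0.0081 and 0.00764, with 0.0054 to 0.1 and 0.0039 to 0.092 over 27 alternatives). RPS9A had the largest value of its list, 2.26 (limma, adjusted p = 0.0317), but its reads can be divided with its near-identical copy RPS9B. RPL14B, among the smaller differences of its list, had responses of -2.04 and -1.60, with a 95% interval of the difference of -0.08 to 0.97.

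**Figure D4:**
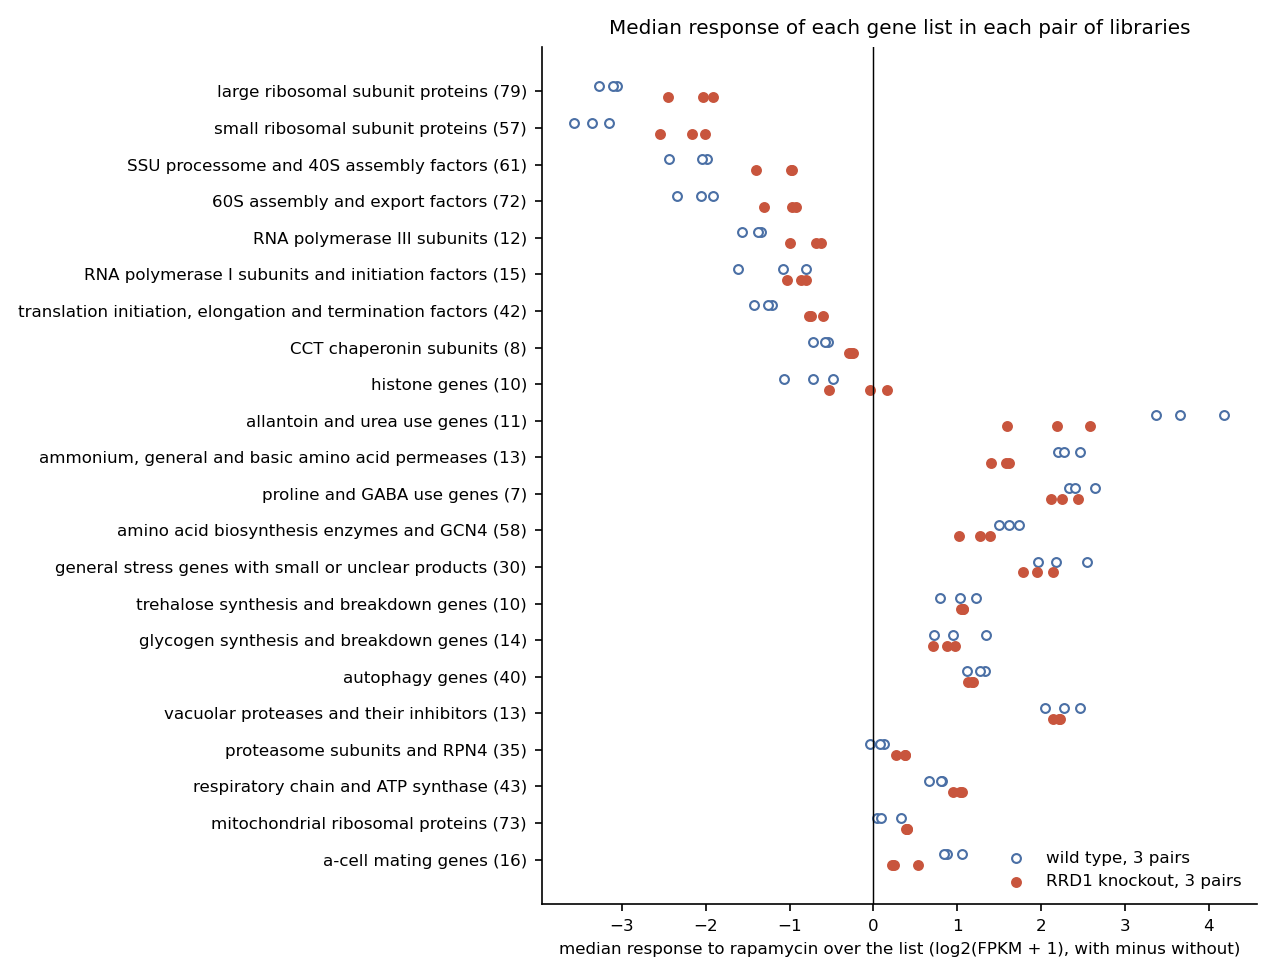
Median response to rapamycin over each gene list (x axis, difference of log2(FPKM + 1)) in the 3 wild-type pairs (open blue) and the 3 knockout pairs (filled red); the number of tested members is in parentheses. The knockout pairs are shifted toward 0 without overlap for the ribosomal proteins, their assembly factors and the allantoin genes, and they overlap the wild-type pairs for trehalose, glycogen, autophagy and vacuolar protease genes.

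Beside the ribosome itself, 2 called genes support growth in other ways. URA1, the dihydroorotate dehydrogenase of pyrimidine synthesis, had the largest called difference above 0. It was at 838, 670.4 and 702 FPKM in the untreated and 36.8, 45.4 and 30.8 FPKM in the treated wild type, and at 545, 498 and 522 FPKM and 103, 122 and 90 FPKM in the knockout. The knockout was lower without the drug and higher with it, with no overlap in either state. The responses were -4.27 and -2.31, a difference of 1.96 ± 0.22 (limma, adjusted p = 0.0042). Of the 11 pyrimidine genes, URA1 included, 9 had a difference above 0, against 4053 of 6497 features tested, and the median was 0.40. At an unadjusted p under 0.05 there were 6 above and 1 below 0, against 805 and 287 of all features. URA10, an orotate phosphoribosyltransferase, was the 1 below 0 at that p, with -0.90 (limma with the block, adjusted p = 0.0081, without it 0.0246, with 0.0031 to 0.076 over 27 alternatives). The IMP dehydrogenase genes IMD3 and IMD4, near-identical copies in guanine nucleotide synthesis whose reads can be divided between them, had differences of 1.23 and 1.14, and IMD3 passed with the block (limma, adjusted p = 0.0081 with and 0.0268 without it, with 0.0066 to 0.076 over 27 alternatives).

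YEF3, the translation elongation factor of fungi, was at 1854, 2043 and 1876 FPKM and 471, 499 and 388 FPKM in the wild type and at 2732, 2389.9 and 2632 FPKM and 1418, 1653 and 1510.3 FPKM in the knockout. The knockout was above the wild type in both states, and far more so with the drug. The difference was 1.33 ± 0.18 (limma, adjusted p = 0.00852). Of the 42 translation factors 41 had a difference above 0, with a median of 0.53; 1 was called above 0, against 0.077% of all features, and 3 with the block, against 0.908%. TEF4 had 0.70 and EFB1, the exchange factor for elongation factor eEF1A, had responses of -1.57 and -1.23 with a 95% interval of the difference of -0.16 to 0.84. The ribosome-bound Hsp70 genes SSB1 and SSB2, whose sequences are nearly identical, had differences of 1.29 and 1.15. The 8 subunits of the CCT chaperonin had median responses of -0.61 and -0.31 and a median difference of 0.35. All 8 lay within 1 of 0 by their 95% intervals, as did 70.9% of all features, a limit wider than these median responses. MIS1, a mitochondrial enzyme of folate-bound one-carbon units, passed with the block (1.15; limma, adjusted p = 0.00879 with and 0.0117 without it, with 0.0022 to 0.054 over 27 alternatives).

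Among the amino acid permeases that serve rich medium, some had differences above 0 of the size seen in the ribosome lists. BAP2, a permease for branched-chain amino acids, was at 250.1, 314 and 334 FPKM and 127, 137 and 125 FPKM in the wild type and at 363, 295 and 362 FPKM and 354, 314 and 311 FPKM in the knockout. The treated wild-type libraries stood apart from the other 3 groups, which overlapped. Its responses were -1.19 and -0.06 and its difference 1.14 ± 0.18 (limma, adjusted p = 0.0152, not called). TAT1, which takes up tyrosine and branched-chain amino acids, had responses of -2.72 and -1.33, and passed with the block (limma, adjusted p = 0.00947 with and 0.03 without it, with 0.0054 to 0.092 over 27 alternatives). The methionine permease gene MUP1 had -2.94 and -0.87, and a difference of 2.07 ± 0.41 that was not called. The list of 16 genes also holds SSY1, PTR3, SSY5, STP1 and STP2, which sense amino acids or regulate the permeases. As a whole it had a median of 0.07, which changed sign with the median-ratio scaling. Of the 16, 10 had a difference above 0 and 6 below, against 4053 and 2444 of 6497 features tested. At an adjusted p under 0.05, 3 were above and 1 below 0, against 1.6% and 0.754% of all features. With the block 2 were called above 0 and 0 below, against 0.908% and 0.369%.

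**Figure D5:**
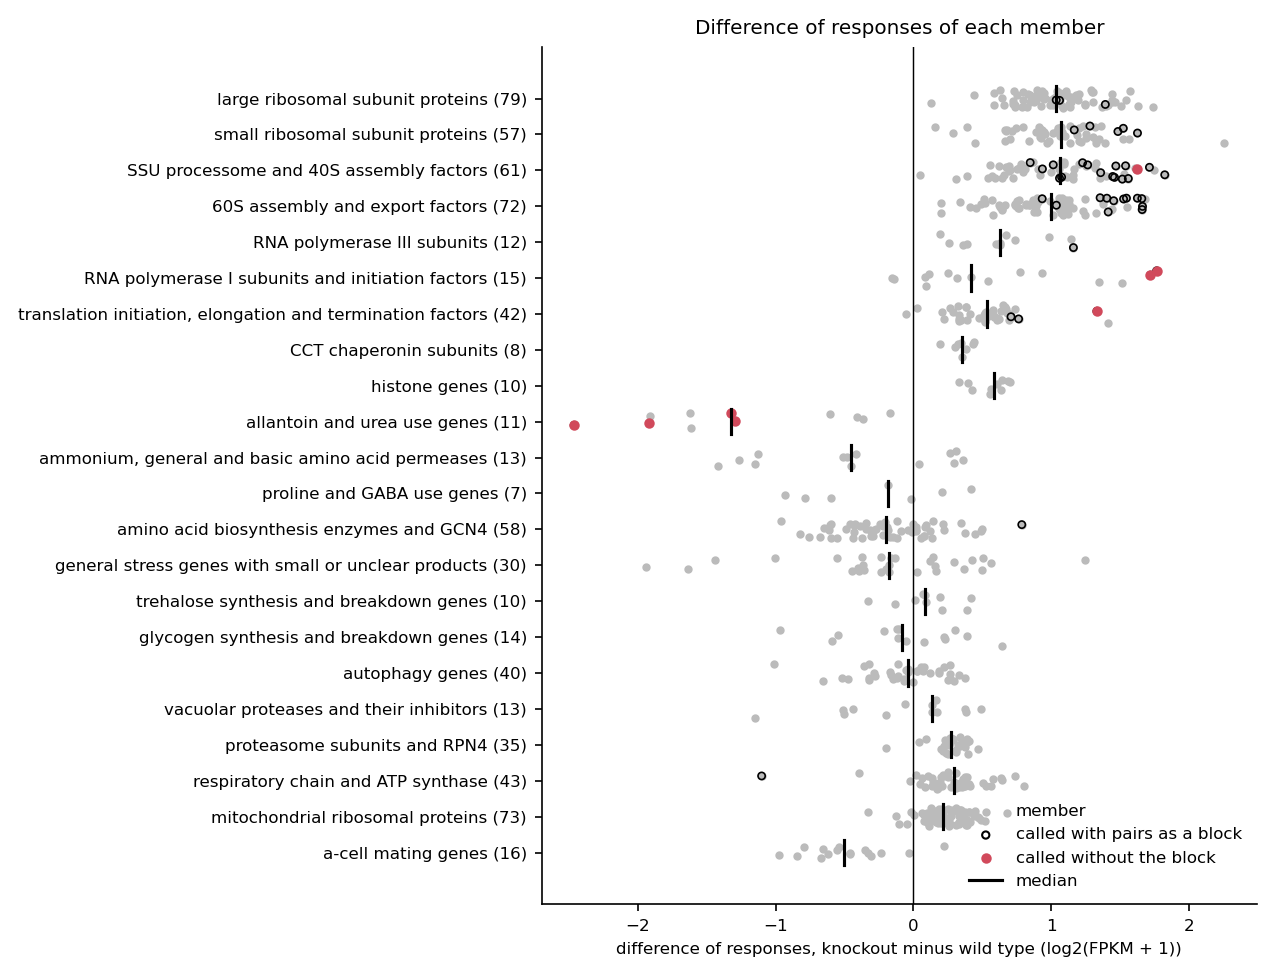
Difference of responses (knockout minus wild type, log2(FPKM + 1), x axis) of each tested member of the gene lists; bars are medians, red points are called and open rings are called with the pairs as a block. Members of the ribosome lists lie to the right of 0, the allantoin genes lie to the left with a wide spread, and the stress, autophagy and protease lists scatter about 0.

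For many genes the size of the difference was bounded. The 95% interval of the difference lay within 1 log2 unit of 0 for 4607 features (70.9%). The median wild-type response over all features was 0.29, and 52.2% of features responded in the wild type. The limit therefore also admits genes with a small response or none. For these it does not show that a response was kept. Among the genes with the largest wild-type responses that met this limit was GAP1, the general amino acid permease and a classical GATA target. Its levels were 17.4, 18.1 and 21.7 FPKM and 1788, 1594 and 1645 FPKM in the wild type and 16, 13.5 and 10.7 FPKM and 684, 956 and 950.2 FPKM in the knockout. The responses were 6.39 and 5.91, and the 95% interval of the difference was -0.99 to 0.03. The difference was not called (limma, adjusted p = 0.331, with 0.0093 to 0.69 over 27 alternatives), except after quantile normalization, where it was -1.20. With rapamycin the knockout level was lower by 0.97 on the log2 scale without overlap (limma, adjusted p = 0.00168), while the untreated groups were -0.49 apart. AGP1, a broad amino acid permease, had 4.24 and 4.55 (-0.25 to 0.87).

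Genes of amino acid synthesis and breakdown also had intervals within this limit. ARG4, the last enzyme of arginine synthesis, had responses of 4.53 and 4.10 (95% interval of the difference -0.94 to 0.08). LYS1, the last enzyme of lysine synthesis and a neighbour of the allantoin cluster, had 3.76 and 3.39 (-0.77 to 0.03). ARO10, a decarboxylase that breaks down aromatic amino acids, had 3.99 and 3.91 (-0.59 to 0.44). The 58 amino acid biosynthesis genes including GCN4 had median responses of 1.63 and 1.24 and a median difference of -0.20, with 0 called and LEU1, an enzyme of leucine synthesis whose level fell in the wild type, called above 0 with the block (0.79; limma, adjusted p = 0.00961 with and 0.03 without it, with 0.0093 to 0.079 over 27 alternatives). In 49 of the 58 the interval lay within 1 of 0, against 70.9% of all features. The differences of 39 were below 0 and those of 19 above, against 2444 and 4053 of 6497 features tested. In 23 all 3 knockout pairs lay below all 3 wild-type pairs and in 5 above, against 10.7% and 24.2% of all features. At an unadjusted p under 0.05 there were 12 below and 4 above 0, against 287 and 805 of all features. The median difference was -0.06 without knockout library 2 and -0.1 without knockout libraries 1 and 2.

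Autophagy and vacuolar proteolysis, which recycle cell material when TORC1 is inhibited, were induced in both strains. The 40 autophagy genes had median responses of 1.25 and 1.15. Of these, 36 rose in the wild type and 34 in the knockout, against 35.9% and 36.4% of all features. For the difference, limma called 0 of the 40 with or without the block, which does not set them apart from the 0.262% and 1.28% of all features. At an unadjusted p under 0.05 there were 1 above and 3 below 0, and 35 had an interval within 1 of 0, against 70.9% of all features. ATG41 lay farthest from 0, with responses of 4.18 and 3.17 and a difference of -1.01 (95% interval -1.81 to -0.21). ATG1, the kinase that starts autophagy, had 1.39 and 0.73. The list of vacuolar proteases and their inhibitors had medians of 2.21 and 2.38. Its 13 genes include AMS1 and VTC4, which are neither. PEP4, proteinase A, had 1.68 and 2.06 (-0.01 to 0.78), whereas the carboxypeptidase gene CPS1 had 3.93 and 2.78 (-2.07 to -0.23) and was not called (limma, adjusted p = 0.18). The median difference of the autophagy list, -0.04, and that of the protease list, 0.13, changed sign in 3 and 2 of 25 alternatives.

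The list of general stress genes had a lower median level in the knockout in both states. The median knockout minus wild-type level of the 30 genes was -0.89 without and -1.15 with rapamycin, against -0.08 and -0.02 over all features. Their median response was 2.24 in the wild type and 1.88 in the knockout. The median difference of -0.18 ran from -0.34 without wild-type library 5 to -0.01 without knockout library 4, and was -0.11 and -0.10 without wild-type libraries 1 and 6. HSP12, a small membrane-protecting protein and a common marker of this response, was chosen after its values were seen. It was at 249.5, 384 and 454 FPKM and 2972, 1996 and 2386 FPKM in the wild type and at 31.8, 37.4 and 17.6 FPKM and 511, 265 and 158 FPKM in the knockout. The treated knockout overlapped the untreated wild type. The responses were 2.78 and 3.28, and the 95% interval of the difference, -0.75 to 1.76, was wide.

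Members of the stress list were uneven. SPG4, a stationary-phase gene, had a difference of -1.94 ± 0.43 (limma, adjusted p = 0.0444), and FMP16 had -1.63 ± 0.46. Neither was called. The 10 trehalose genes and the 14 glycogen genes had median differences of 0.09 and -0.08, against 0.09 over all features, and both changed sign in 2 of 25 alternatives. TSL1, a subunit of trehalose synthase, was lower in the knockout in both states, by 2.04 without and 1.65 with rapamycin on the log2 scale, with responses of 1.18 and 1.57. CTT1, the cytosolic catalase, had 2.16 and 1.32, with a 95% interval of the difference of -1.39 to -0.29 and no call (limma, adjusted p = 0.0984).

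The proteasome, the respiratory chain and the mitochondrial ribosome had median differences of 0.27, 0.29 and 0.22, against 0.09 over all features. The 35 proteasome genes had medians of 0.05 and 0.36, the 43 respiratory chain genes 0.76 and 0.96, and the 73 mitochondrial ribosomal proteins 0.15 and 0.37. With the median-ratio scaling the proteasome medians were -0.24 and 0.00 and those of the mitochondrial ribosome -0.14 and 0.02, so that the sign of the wild-type response of these 2 lists depended on the scale, whereas the median differences stayed at 0.21 and 0.15.

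The 16 a-cell mating genes had median responses of 0.94 and 0.40 and a median difference of -0.50, with 0 called with or without the block. Differences of 15 were below 0 and that of 1 above, against 2444 and 4053 of 6497 features tested. In 11 all 3 knockout pairs lay below all 3 wild-type pairs and in 1 above, against 10.7% and 24.2% of all features. At an unadjusted p under 0.05 (limma) there were 0. Here the knockout pairs were not alike: their medians were 0.53, 0.25 and 0.22, the first from libraries 1 and 2. Without that pair the median difference was -0.54, but it rested on single libraries: it was -0.26 without knockout library 1, -0.83 without knockout library 2 and -0.31 without knockout library 4. STE2 had responses of 1.16 and 0.32 (95% interval of the difference -1.79 to 0.10). The part of these libraries' mating gene levels in the other results was not tested.

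The 10 histone genes had median responses of -0.77 and -0.14, and all 10 differences lay between 0.33 and 0.71, with 0 called with or without the block and 1 at an unadjusted p under 0.05. The median difference of 0.59 was 0.33 without wild-type library 4 and 0.81 without knockout libraries 1 and 2. HTA1, a histone H2A gene with a near-identical copy, had -0.82 and -0.11 (95% interval of the difference -0.02 to 1.43). The 24 genes of TORC1 and its inputs had a median difference of 0.03, and the 20 genes of RRD1, its paralogue RRD2 and the PP2A-type phosphatases had 0.08. PPH21 and PPH22, the PP2A catalytic subunits, had differences of 0.12 and 0.35, and SAP185, a partner of Sit4, had 0.60 ± 0.23 (limma, adjusted p = 0.211). None of these genes was called for the difference.

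The motifs were counted in the promoters of called genes. GATGAG occurred in 4 of 5 promoters of genes called above 0 and in 39 of 59 (66.1%) of those called above 0 with the block, against 20% of all 5854 promoters. It was also in 5 of 12 promoters of genes called below 0 and in 9 of 24 (37.5%) with the block. It was in 91.8% of the SSU list, 90.3% of the 60S list, 80% of the RNA polymerase I list and 83.3% of the RNA polymerase III list, but in 10.1% and 12.3% of the ribosomal protein lists, whose median differences were close to those of the SSU and 60S lists and above those of both polymerase lists. GATAAG occurred in 4 of 12 promoters of genes called below 0 and in 10 of 24 (41.7%) with the block, against 14.8%. AGGGG, the core of the stress response element, was in 15 of 30 general stress promoters (50%) against 21.7% of all, and in 2 of 12 of the genes called below 0. TGACTC, the Gcn4 site, was in 32 of 58 amino acid biosynthesis promoters (55.2%) against 8.13%. These counts describe letters on either strand and not bound sites.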

How the data were processed

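Per the methods of the study, total RNA of each culture was turned into TruSeq libraries and read as single 100-nt reads on an Illumina HiSeq, and the authors aligned the reads with TopHat and estimated levels with Cufflinks (the processing notes also name Cuffdiff). The versions, the genome build and the annotation are not given in the sources used here. The deposited table holds FPKM values, which the authors normalized for transcript length and for the mapped fragments of each library; it has no counts and no columns of the authors' own tests, and 0 value columns were left unmapped. Read depth was not stated, and the implied depth in the text rests on an assumed fragment length of 200 ± 80 bases, on a search between 7000000 and 13000000 reads and on low values that were whole reads within 0.05 in part only.

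Values were taken as log2(FPKM + 1), and features averaging 1 FPKM or more were tested with limma 3.58.1 in R 4.3.3 (4 group means, variance trend, Benjamini-Hochberg adjustment over all tested features, threshold 0.01 for a call). Because of the pseudocount of 1, fold changes of low genes are understated. Reads of near-identical gene copies (many ribosomal protein pairs, SSB1 and SSB2, IMD3 and IMD4) may have been divided between them. No label says that the libraries of a group came from separate cultures beyond the different days, and the p-values measure the spread between these libraries. The fit was tested on simulated data with known changes.

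Whether consecutive numbers of a strain (1 and 2, 3 and 4, 5 and 6) were pairs was read from the data, since no label states it: their deviations from the group means correlated across genes at 0.25, 0.23 and 0.29 in the wild type and at 0.18, 0.17 and 0.16 in the knockout, against -0.17 to -0.04 for other combinations within a strain. Deviations from a group mean sum to 0 within the group, so positive values for consecutive numbers pull the other combinations below 0. The negative values are therefore no separate evidence of pairing. The pairs were used as a block in an alternative fit. Genes named were RRD1 and marker genes, up to 12 called differences in each direction that were at least 300 nt long, reached a group mean of 10 FPKM and had pairs that did not overlap, for each of 49 gene lists the 3 members with the smallest p and the 1 nearest the median, and 12 genes with large wild-type responses and a 95% interval of the difference within 1 of 0. The comparison, its members and the gene lists were chosen with earlier results of these data known. Alternatives changed the pseudocount, the filter, the scaling, the variance model, the block, the threshold or left out a library. Promoters are from RefSeq R64 and were matched by systematic name for 5854 of the tested features.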

Additional observations from a re-analysis of the deposited data

Results flagged for a closer look

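For 17 genes the response to rapamycin differed between the strains by the test of the difference itself (limma, Benjamini-Hochberg adjusted p under 0.01), which is 0.262% of the features tested. Single values far from the rest of their group were not looked for within the groups of 3 libraries. All values are knockout minus wild-type response on the log2(FPKM + 1) scale. Among the nitrogen genes the differences were -2.46 for DAL5, -1.92 for DAL2, -1.33 for DCG1, -1.30 for DUR3, -1.51 for GDH3 and -1.45 for VBA1. Among genes of carbon use and peroxide removal they were -2.31 for TSA2, -1.69 for MLS1 and -1.51 for YAT2. Of the features with no established function, YHR022C had -1.62, YIL165C had -1.55 and YPR078C had -1.21. The 5 growth genes had 1.96 for URA1, 1.77 for RPA190, 1.72 for RPA135, 1.63 for KRE33 and 1.33 for YEF3.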

How the results depend on the processing

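No called result changed its direction, and the number of called differences, 17 as reported, moved most. It was 11 with a pseudocount of 0.1, 7 without the filter on low values, 7 without the variance trend, 70 with library weights, 102 after quantile normalization and 153 at an adjusted p under 0.05; 17, 24 and 19 were called with a mean of at least 5 FPKM, with median-ratio scaling and without features under 300 nt. With the replicate block it was 83 for pairs within a strain, 62 for pairs shared between the strains and 7 for a library number shared between the strains, whose same-numbered libraries correlated at only -0.17 to 0.13. Leaving out 1 library gave 1 to 19. Settings chosen after seeing the data gave 4 without knockout libraries 1 and 2 and 133 with median-ratio scaling and the block of pairs. At a 2-fold minimum the wild-type response was called for 1806 features and the knockout response for 1416. The cause of these shifts was not tested. The block of pairs added 71 calls and lost 5, and it moved neither count of responses by more than 1.5 times. Of 5585 values of named genes under the alternatives, 229 lost and 165 gained their call, and 51 moved. Of 1250 list medians, 19 moved. A value counted as moved when it shifted by at least the combined SD of its 3 pair values in each strain. Smaller shifts were not counted, and many list medians left their main value by more than 1.5 times when 1 library was left out. Medians of 14 of 49 lists changed sign in at least 1 setting. Among them was that of the phosphate uptake and polyphosphate genes, which was 0.21 and ran from -0.01 to 0.56. FPKM values carry no counts, so that the precision of low levels could not be computed.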
